A study of Mus musculus with 6 samples.

Results

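Genes of B cells and of antibody-secreting plasma cells were followed in RNA sequencing libraries of inflamed mouse prostates, as 9 genes chosen by symbol from the 18697 genes of the count table. All 9 were in the table. The B cell genes were Cd22, Cd79a, Cd79b, Ms4a1 and Cr2, and the plasma cell genes were Jchain, Mzb1, Pou2af1 and Tnfrsf17. The mice had experimental autoimmune prostatitis (EAP), in which an immune response to prostate antigens keeps the gland inflamed. In 1 group, the CXCR7 agonist VUF11207 was injected intraperitoneally at 5 mg per kg each day for 14 days (3 libraries). The other group had received an equal amount of the vehicle DMSO over the same 14 days (3 libraries). Both groups thus carried the disease model, while strain, age and the number of mice behind each library are not stated in the labels. CXCR7, an atypical chemokine receptor encoded by Ackr3, is what the study asked about in this disease.

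B cells recognise antigen through a membrane antibody whose signal is carried by the Cd79a and Cd79b chains. Activated B cells can become plasma cells, which close down much of the B cell program and secrete antibody. Antibody secreted as polymers is joined by the J chain, and such polymers are moved across glandular epithelium by the polymeric immunoglobulin receptor Pigr. In autoimmune tissue, B cells can gather in clusters that are attracted by the chemokine CXCL13. Of 14 listed genes of immunoglobulin chains and their transport, Pigr alone had a row in the count table used here, so the immunoglobulin chain genes were not analysed here.

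Total counts per library ran from 23915765 to 29311438 in the VUF11207 group and from 20308018 to 33368058 in the DMSO group. DMSO replicates 2 and 3 had labels of their own, while the remaining DMSO column matched none of the sample files used here and is called the unnumbered DMSO library. Its column name carries a number that is shared with the column of VUF11207 replicate 1. By elimination it would be DMSO replicate 1, but no sample file used here shows this. Libraries differed in their counts of genes of neighbouring tissue. Seminal vesicle genes took 28.1%, 3.11% and 3.54% of counts in VUF11207 replicates 1, 2 and 3, and 0.700%, 64.9% and 16.3% in the unnumbered DMSO library and DMSO replicates 2 and 3 (Wilson 95% intervals within 0.0163 percentage points, counting error only). In DMSO replicate 3, Svs2, Svs5 and Pate4 of this list had 2504190, 1013767 and 484770 counts, but Svs1, Svs3a and Svs6 only 6168, 2534 and 6749. The unnumbered DMSO library had 12219, 2900 and 4069 counts of Svs1, Svs3a and Svs6. The share thus rested on part of the list and need not measure tissue content. Skeletal muscle genes were highest in VUF11207 replicate 1 and DMSO replicate 3, at 0.593% and 0.678% of counts. Levels below are CPM, the counts of a gene relative to all counts of its library, with scaling by the trimmed mean of M values (TMM), which weighs out a few dominant genes. Because the libraries are of bulk tissue, fewer cells of a type and less RNA per cell cannot be told apart. The labels do not say that libraries came from separate mice, so each p-value reflects only how far these libraries spread, which may be technical.

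The antigen receptor chain genes were low and uneven in both groups. Cd79a, the Ig-alpha signalling chain (chromosome 7 from 24897381 to 24902197 in GENCODE M21, build mm10), had 0.0676, 3.99 and 0.473 CPM in VUF11207 replicates 1, 2 and 3, and 1.59, 0.352 and 1.52 CPM in the unnumbered DMSO library and DMSO replicates 2 and 3. These were 2, 119 and 14 counts with VUF11207 and 43, 5 and 47 counts with DMSO. VUF11207 replicate 2 was the highest library and VUF11207 replicate 1 the lowest, so the DMSO values lay inside the VUF11207 range. Cd79b, the Ig-beta chain (chromosome 11 from 106311341 to 106314762), had 0.473, 1.64 and 0.372 CPM with VUF11207 and 1.18, 0.704 and 1.94 CPM with DMSO, in the same order of libraries. Here DMSO replicate 3 was highest, and the groups again overlapped. The ratio of Cd79b to Cd79a counts was 7 in VUF11207 replicate 1 (exact 95% interval 1.61 to 63.5) and 0.412 in VUF11207 replicate 2 (0.289 to 0.579), intervals that do not overlap and cover counting error only.

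The B cell surface genes Cd22 and Ms4a1 showed the same high library. Cd22, an inhibitory sialic acid receptor of B cells (chromosome 7 from 30865402 to 30880342), had 0.169, 2.48 and 0.0676 CPM in VUF11207 replicates 1, 2 and 3, and 1.07, 0.0704 and 1.03 CPM in the unnumbered DMSO library and DMSO replicates 2 and 3. Low values thus occurred in both groups. Ms4a1, which encodes CD20 (chromosome 19 from 11249675 to 11266241), had 0, 2.25 and 0.541 CPM with VUF11207 and 0.370, 0 and 0.904 CPM with DMSO. A count of 0 allows up to 0.101 CPM in VUF11207 replicate 1 and up to 0.211 CPM in DMSO replicate 2 (3 counts per library).

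Cr2 did not follow the other B cell genes. It encodes complement receptor 2, found on mature B cells and on follicular dendritic cells (chromosome 1 from 195136811 to 195176716). Cr2 had 0.473, 0.335 and 0.169 CPM in VUF11207 replicates 1, 2 and 3, and 0.0740, 0.0704 and 0.743 CPM in the unnumbered DMSO library and DMSO replicates 2 and 3. VUF11207 replicate 1, in which Ms4a1 had 0 counts, held 14 Cr2 counts. DMSO replicate 3 and VUF11207 replicate 1, the highest libraries for Cr2, were also those with most skeletal muscle counts, and the part of muscle in this was not tested. Over the 6 libraries, Pearson r on log2 CPM between Cr2 and each of the other 7 members that passed the low count filter ran from 0.039 to 0.48. Among those 7 genes the 21 pairs had r from 0.51 to 0.96 with a median of 0.88, as a description of 6 libraries that share their scaling.

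Of the plasma cell genes, Jchain and Mzb1 were the most abundant. Jchain, the joining chain of polymeric IgA and IgM (chromosome 5 from 88519809 to 88527891), had 9.09, 161 and 4.93 CPM in VUF11207 replicates 1, 2 and 3, and 18.6, 6.76 and 51.6 CPM in the unnumbered DMSO library and DMSO replicates 2 and 3. Behind these stood 269, 4793 and 146 counts with VUF11207 and 502, 96 and 1597 counts with DMSO. VUF11207 replicate 2 was 32.6-fold above VUF11207 replicate 3 of the same group, and both extremes of the 6 libraries were VUF11207 libraries. Mzb1, an endoplasmic reticulum co-chaperone of antibody assembly (chromosome 18 from 35647267 to 35649367), had 0.304, 13.4 and 0.811 CPM with VUF11207 and 1.85, 0.704 and 4.295 CPM with DMSO. The order at the top was that of Jchain, with VUF11207 replicate 2 first and DMSO replicate 3 second.

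The other plasma cell genes were scarcer. Pou2af1, a transcriptional coactivator of octamer sites that is present in B cells and plasma cells (chromosome 9 from 51213708 to 51240080), had 0.203, 3.39 and 0 CPM in VUF11207 replicates 1, 2 and 3, and 1.11, 0.422 and 2.16 CPM in the unnumbered DMSO library and DMSO replicates 2 and 3. Its 0 counts in VUF11207 replicate 3 allow up to 0.101 CPM. Tnfrsf17, which encodes the survival receptor BCMA of plasma cells (chromosome 16 from 11313812 to 11320074), did not pass the low count filter. It had 3, 2 and 3 counts with VUF11207 and 10, 2 and 0 counts with DMSO. VUF11207 replicate 2, in which Jchain reached 4793 counts, thus held 2 counts of Tnfrsf17.

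**Figure D1:**
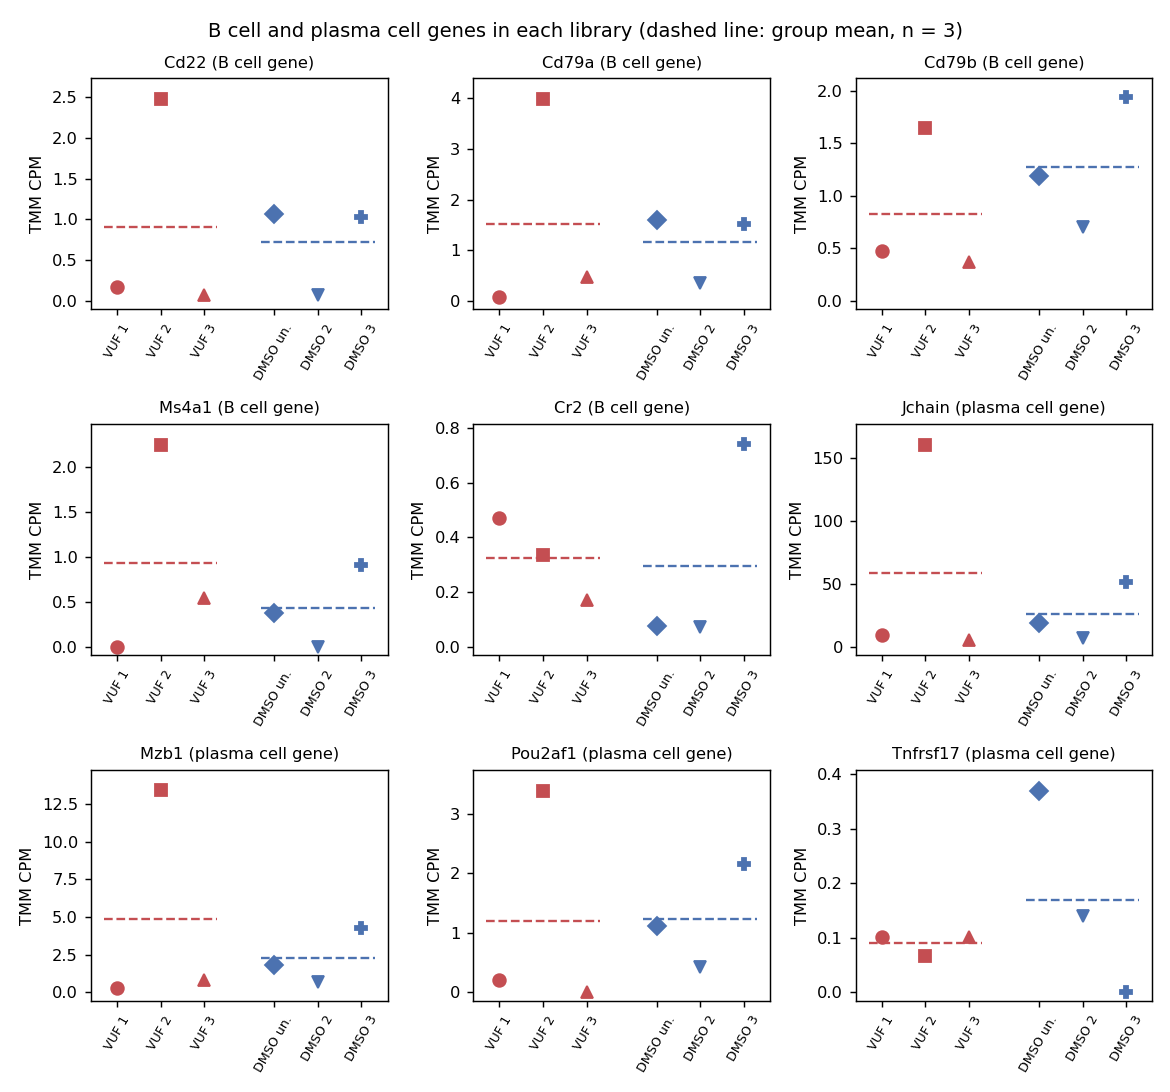
TMM-scaled CPM of each of the 9 genes (1 panel per gene, linear axes that differ between panels) in the 3 VUF11207 libraries (red, left) and the 3 DMSO libraries (blue, right, un. for the unnumbered library). Dashed lines are group means. VUF11207 replicate 2 was the highest library for 6 genes, and the groups overlapped in every panel.

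VUF11207 replicate 2 was the highest of the 6 libraries for 6 of the 9 genes, namely Cd22, Cd79a, Ms4a1, Jchain, Mzb1 and Pou2af1, against 12.1% of the 13753 genes tested. The same 3 libraries, VUF11207 replicate 2, the unnumbered DMSO library and DMSO replicate 3, were the highest 3 for 6 genes (Cd22, Cd79a, Cd79b, Jchain, Mzb1 and Pou2af1), against 8.34% of genes tested. The split between high and low libraries therefore ran across the treatment groups, with 1 VUF11207 and 2 DMSO libraries on the high side.

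Sequence just upstream of the transcription start is shown for Jchain and Pou2af1, which moved together across libraries, and for Cr2, which did not. These are the 250 bases before the RefSeq start (build GRCm38.p6, which is mm10), 5′ to 3′ on the gene's strand, at chr5:88527898-88528147 (minus strand), chr9:51213440-51213689 (plus strand) and chr1:195176720-195176969 (minus strand). Capitals mark the ETS core GGAAGT on either strand, which only the Cr2 window of these 3 holds.
Jchain: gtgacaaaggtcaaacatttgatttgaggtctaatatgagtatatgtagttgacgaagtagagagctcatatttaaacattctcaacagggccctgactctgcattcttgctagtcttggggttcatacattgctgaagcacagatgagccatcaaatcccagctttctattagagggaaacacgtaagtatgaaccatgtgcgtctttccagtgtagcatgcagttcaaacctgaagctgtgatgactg
Pou2af1: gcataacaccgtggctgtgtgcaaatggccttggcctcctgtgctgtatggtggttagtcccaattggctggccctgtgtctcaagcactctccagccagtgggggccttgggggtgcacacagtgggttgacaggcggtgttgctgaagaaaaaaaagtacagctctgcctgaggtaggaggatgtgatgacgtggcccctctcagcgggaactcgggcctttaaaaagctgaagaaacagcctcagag
Cr2: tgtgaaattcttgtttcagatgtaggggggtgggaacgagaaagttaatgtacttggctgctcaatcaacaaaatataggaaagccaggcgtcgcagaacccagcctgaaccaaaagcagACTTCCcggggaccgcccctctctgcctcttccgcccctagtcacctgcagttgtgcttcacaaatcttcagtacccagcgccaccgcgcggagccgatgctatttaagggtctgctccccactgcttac
Of the 9 genes, 6 had an entry in the RefSeq promoter table. The octamer ATGCAAAT, bound by the partners of the Pou2af1 protein, was in 0 of these 6 windows and in 1.62% of 32536 windows of 250 bases. The ETS core was in the windows of Cd79a and Cr2 and in 19.8% of all windows, and the EBF core CCCNNGGG was in that of Cd22 and in 11.9% of all windows. The RefSeq windows of Cd79a and Cd22 lie partly or wholly inside the genes as GENCODE M21 places them, so both motifs there stand within a GENCODE gene and not upstream of it. Both strands were searched, and the motifs do not overlap in these windows. These matches describe letters only and say nothing about binding.

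Levels were compared between genes per kilobase of exon, with exon lengths from GENCODE M21. Averaged over the 6 libraries, Jchain was at 16.7 CPM per kb and Mzb1 at 2.93 CPM per kb, and this order held in 6 of 6 libraries. Cd79a followed at 0.914, below Mzb1 in 6 of 6 libraries, and Cd79b at 0.735 CPM per kb, below Cd79a in only 3 of 6 libraries. Pou2af1 was at 0.476, Cd22 at 0.162, Tnfrsf17 at 0.160, Ms4a1 at 0.109 and Cr2 at 0.0383 CPM per kb. From Cd79a downward no neighbouring pair kept its order in all 6 libraries, so those ranks lie within the spread between libraries.

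Count ratios of the listed plasma cell genes to the listed B cell genes also varied within groups. They compare genes and not cell types, since the plasma cell gene Pou2af1 is present in B cells too. The Jchain to Cd79a count ratio was 134.5 in VUF11207 replicate 1 (exact 95% interval 36.9 to 1116), 40.3 in VUF11207 replicate 2 (33.6 to 48.7) and 10.4 in VUF11207 replicate 3 (6.02 to 19.6). It was 11.7 in the unnumbered DMSO library (8.54 to 16.3), 19.2 in DMSO replicate 2 (7.95 to 60.5) and 34.0 in DMSO replicate 3 (25.4 to 46.4). The unnumbered DMSO library and DMSO replicate 3 did not overlap in their intervals, nor did VUF11207 replicates 2 and 3, so libraries of the same group differed by more than counting error. The Jchain to Mzb1 count ratio was 29.9 in VUF11207 replicate 1 (15.5 to 66.1), 11.98 in VUF11207 replicate 2 (10.8 to 13.3) and 6.08 in VUF11207 replicate 3 (3.93 to 9.80). It was 10.04 in the unnumbered DMSO library (7.498 to 13.7), 9.60 in DMSO replicate 2 (5 to 20.7) and 12.01 in DMSO replicate 3 (10.06 to 14.4). The DMSO libraries overlapped in this ratio, while the intervals of the 3 VUF11207 libraries did not overlap with each other. The plasma cell genes other than Jchain, per count of the B cell genes, were at 0.514 (0.274 to 0.933), 1.58 (1.37 to 1.82) and 0.563 (0.338 to 0.920) in VUF11207 replicates 1, 2 and 3. The same ratio was 0.776 (0.583 to 1.03) in the unnumbered DMSO library, 1.06 (0.515 to 2.19) in DMSO replicate 2 and 1.053 (0.859 to 1.29) in DMSO replicate 3. In this last ratio VUF11207 replicate 2 was above the other VUF11207 libraries, beyond counting error, but other ratios did not show this. Of the 35 B cell gene counts in VUF11207 replicate 1, 14 were of Cr2, which did not follow the other B cell genes. The ratio was not computed without Cr2. The Jchain to Cd79a ratio was highest in VUF11207 replicate 1, with an interval overlapping that of VUF11207 replicate 2. The Mzb1 to Cd79a ratio was 4.5 (0.931 to 42.8), 3.36 (2.73 to 4.16) and 1.71 (0.852 to 3.585) in VUF11207 replicates 1, 2 and 3, with overlapping intervals.

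None of the 9 genes differed between VUF11207 and DMSO in edgeR's quasi-likelihood test at a Benjamini-Hochberg adjusted p under 0.05, where 0 of 13753 genes tested passed (0%). DESeq2 called 0 of the 9 and 4 of 17291 genes with an adjusted p (0.0231%). Of the 8 members that passed the filter, 0 had an unadjusted edgeR p under 0.05, against 196 of all genes tested (1.43%). The groups overlapped for all 9 genes, while 5.57% of genes tested had separate groups (3.05% higher and 2.52% lower with VUF11207). The 8 members had a median log2 fold change of 0.33, with 6 above 0, beside a median of -0.041 and 44.7% above 0 over all genes tested.

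Jchain averaged 58.2 CPM ± 88.8 with VUF11207 and 25.6 CPM ± 23.2 with DMSO (SD, n = 3 each), giving as log2 fold change 1.18 ± 1.37 (SE) with a 95% interval from -2.09 to 4.45. Mzb1 averaged 4.84 CPM ± 7.43 with VUF11207 and 2.28 CPM ± 1.83 with DMSO (SD, n = 3 each), giving as log2 fold change 1.07 ± 1.37 (SE). Cd79a averaged 1.51 CPM ± 2.16 with VUF11207 and 1.15 CPM ± 0.695 with DMSO (SD, n = 3 each), giving as log2 fold change 0.37 ± 1.29 (SE). In each case the SD of the VUF11207 group exceeded its mean. Ms4a1 was at 1.06 ± 1.62, Cd22 at 0.29 ± 1.41, Cr2 at 0.071 ± 1.08, Pou2af1 at -0.059 ± 1.55 and Cd79b at -0.63 ± 0.78 (log2 fold change, SE). Tnfrsf17, from a fit without the low count filter, was at -0.86 ± 1.42 with an interval from -4.16 to 2.43. The narrowest interval, that of Cd79b, ran from -2.48 to 1.22, so changes of several-fold either way were not detectable at this spread.

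The sign of most of these values depended on which libraries entered, and most of all on VUF11207 replicate 2. The mean was higher with VUF11207 for 6 genes (Cd22, Cd79a, Ms4a1, Cr2, Jchain and Mzb1), yet the median of the 3 libraries was lower with VUF11207 for 7 genes, all but Ms4a1 and Cr2. Jchain had medians of 9.09 CPM with VUF11207 and 18.6 CPM with DMSO. Without VUF11207 replicate 2 the log2 fold changes turned to -1.87 for Jchain, -2.03 for Mzb1, -2.08 for Cd79a, -2.59 for Cd22 and -0.69 for Ms4a1, and that of Pou2af1 was -3.56, all with adjusted p of 0.9995 in edgeR. Limma voom, which averages on the log scale, gave -0.14 for Jchain, -0.47 for Mzb1 and -1.045 for Cd79a with all 6 libraries, with adjusted p of 0.9999. Signs also turned without other libraries. Without DMSO replicate 2, Cd22 was at -0.21, Cd79a at -0.035 and the median of the members at -0.12. Pou2af1 was at 0.46, 0.53 and 0.62 without VUF11207 replicate 1, VUF11207 replicate 3 and DMSO replicate 3. Cr2 was at -0.27, -0.39 and -0.33 without VUF11207 replicate 1, the unnumbered DMSO library and DMSO replicate 2, and at 0.061 without VUF11207 replicate 2. Tnfrsf17 was at 0.62 without the unnumbered DMSO library. No direction can be given for the group on these data.

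**Figure D2:**
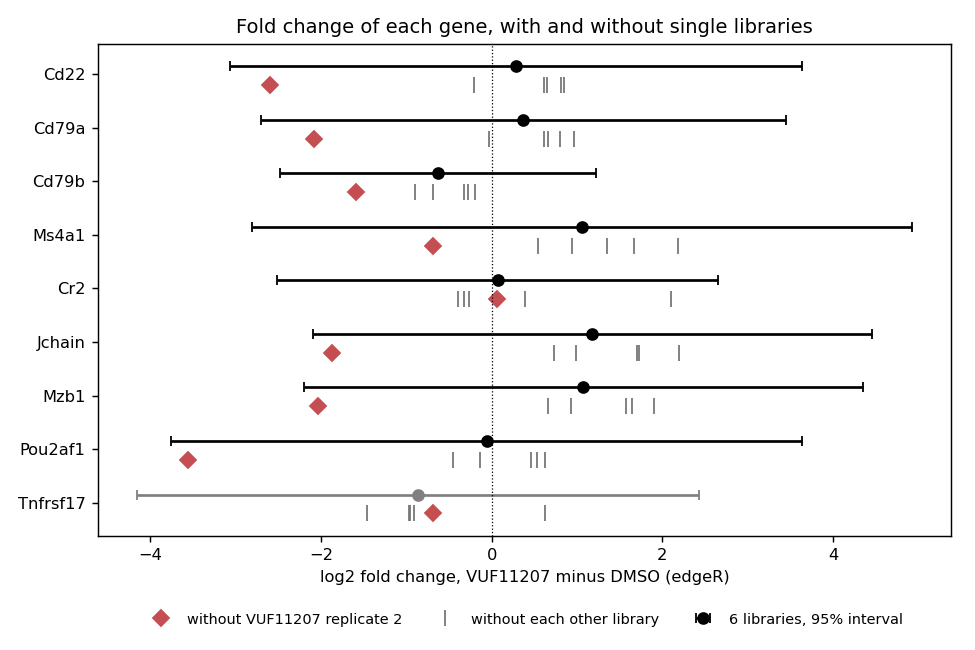
The log2 fold change of each gene (VUF11207 minus DMSO, edgeR) with its 95% interval from all 6 libraries (black, grey for Tnfrsf17, which was fitted without the low count filter), and the value without VUF11207 replicate 2 (red diamond) or without each of the other libraries (grey bars). Every interval spans 0, and leaving out VUF11207 replicate 2 moved Jchain to -1.87 and Pou2af1 to -3.56.

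Other B cell genes spread over the libraries in a like way only in part. Of 20 listed genes 12 passed the filter, 6 of them with a positive log2 fold change, with a median of -0.11 and 0 called. The same 3 libraries were highest for 7 of the 12, including Pax5, the transcription factor of B cell identity. Pax5 had 0.0338, 1.61 and 0.541 CPM in VUF11207 replicates 1, 2 and 3, and 1.15, 0 and 0.969 CPM in the unnumbered DMSO library and DMSO replicates 2 and 3. This defining marker was thus low throughout and at or near 0 in VUF11207 replicate 1 and DMSO replicate 2. Cd74, the class II invariant chain shared by B cells, macrophages and dendritic cells, stood far higher, at 77.4, 339 and 84.9 CPM with VUF11207 and 318, 140.5 and 126 CPM with DMSO. Unlike Jchain, it was higher in the unnumbered DMSO library than in DMSO replicate 3. Cd72, a B cell inhibitory receptor, and Ebf1, a B cell transcription factor also present in fat and stromal cells, had log2 fold changes of -0.23 ± 0.67 and -0.35 ± 0.79 (SE). Fcer2a of the same list had another order, highest in DMSO replicate 2 at 2.39 CPM and lowest in the unnumbered DMSO library at 0.296 CPM. Bank1 and Cd180 were also lowest in the unnumbered DMSO library, at 0.0370 and 0 CPM, though highest in VUF11207 replicate 2.

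Most listed genes of the wider plasma cell program did not share the library order of Jchain. Of 16 listed genes 15 passed the filter, 2 had a positive log2 fold change, the median was -0.32 and 0 were called. Only Derl3, a factor of endoplasmic reticulum protein degradation, had the same 3 libraries highest. Sdc1, the plasma cell marker syndecan-1 that epithelia also express, had 16.9, 17.1 and 22.9 CPM in VUF11207 replicates 1, 2 and 3, and 13.02, 11.1 and 17.9 CPM in the unnumbered DMSO library and DMSO replicates 2 and 3. Xbp1, the transcription factor of the secretory program in plasma cells and gland epithelium, had 272, 127 and 274 CPM with VUF11207 and 144, 332 and 285 CPM with DMSO, so VUF11207 replicate 2 was the lowest library. Prdm1, which drives plasma cell differentiation, stayed between 1.048 and 1.34 CPM with VUF11207 and between 1.23 and 2.04 CPM with DMSO. Irf4, a transcription factor of activated lymphocytes and plasma cells, had 0.541, 1.81 and 0.372 CPM with VUF11207 and 0.296, 0.141 and 2.13 CPM with DMSO, high in the libraries with most Jchain. Txndc5 and Creld2, endoplasmic reticulum proteins, had log2 fold changes of -0.47 ± 0.36 and -0.33 ± 0.55 (SE). Xbp1, Txndc5 and Creld2 averaged 239, 205 and 187 CPM over the libraries, far above Mzb1 at 3.56 CPM. The part of gland epithelium in these levels was not tested.

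Pigr, the epithelial receptor that carries J chain-bound antibody into secretions, had 470, 450 and 622 CPM in VUF11207 replicates 1, 2 and 3, and 43.8, 290 and 783 CPM in the unnumbered DMSO library and DMSO replicates 2 and 3. Its lowest value was in the unnumbered DMSO library and the groups overlapped, with a log2 fold change of 0.47 ± 0.86 (SE). Pigr and Jchain thus did not share their order of libraries.

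The list of antigen receptor signalling genes had 16 of 16 members past the filter, 7 with a positive log2 fold change, a median of -0.17 and 0 called. For 7 of the 16 the same 3 libraries were highest, among them Syk and Btk, the kinases that carry the receptor's signal. These libraries were also the highest for 9 of 12 macrophage markers, and the part of macrophages in the signalling genes was not tested. Syk had 0.980, 4.56 and 0.912 CPM in VUF11207 replicates 1, 2 and 3, and 4.10, 1.06 and 3.97 CPM in the unnumbered DMSO library and DMSO replicates 2 and 3. Blnk, the adaptor downstream of Syk, was more even, with 39.6, 60.3 and 63.8 CPM with VUF11207 and 63.5, 36.3 and 58.3 CPM with DMSO. Cd81, a tetraspanin of many cell types, and Pik3ap1, an adaptor of phosphoinositide 3-kinase, had log2 fold changes of 0.27 ± 0.34 and 0.13 ± 0.38 (SE).

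Of 20 signals and receptors of B cell attraction and survival 9 passed the filter, 5 of them positive, with a median log2 fold change of 0.064 and 0 called. Cxcl13, the chemokine that draws B cells through their receptor Cxcr5, had 2.57, 30.7 and 3.21 CPM in VUF11207 replicates 1, 2 and 3, and 22.9, 1.55 and 19.05 CPM in the unnumbered DMSO library and DMSO replicates 2 and 3. Its 3 highest libraries were those of Cd79a and Jchain, its groups overlapped, and its log2 fold change was -0.26 ± 1.21 (SE). Ltb, the lymphotoxin chain that maintains lymphoid tissue, had 0.878, 4.36 and 1.08 CPM with VUF11207 and 2.40, 1.06 and 2.55 CPM with DMSO, again high in these 3 libraries. Ccl21a, a chemokine of lymphatic vessels and lymphoid stroma, had 5.47, 17.03 and 5.07 CPM with VUF11207 and 15.4, 1.48 and 4.26 CPM with DMSO, low in DMSO replicate 3. Tnfsf13b, the B cell survival factor BAFF, was at or below 0.469 CPM with VUF11207 and between 0.355 and 1.55 CPM with DMSO, a log2 fold change of -1.07 ± 0.76 (SE). The drug's receptor gene Ackr3 had 5.57, 12.7 and 10.2 CPM with VUF11207 and 11.2, 4.65 and 5.55 CPM with DMSO. The log2 fold changes were 0.41 ± 0.46 for Ackr3, -0.28 ± 0.26 for its ligand gene Cxcl12 and -0.31 ± 0.68 for Cxcr4, the other receptor of that ligand (SE).

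**Figure D3:**
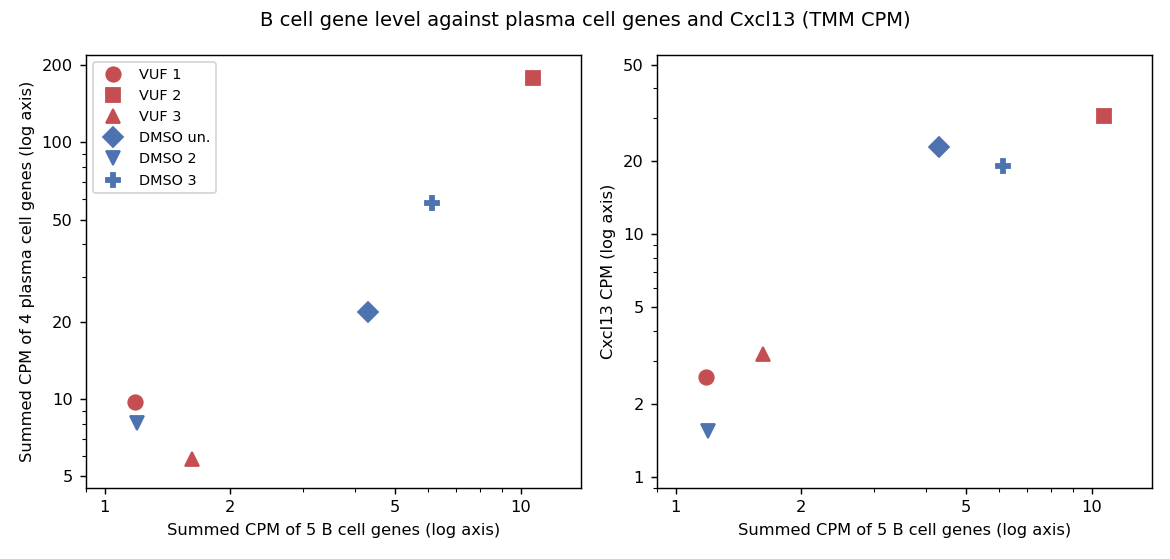
Summed TMM CPM of the 5 B cell genes (x, log axis) against the summed CPM of the 4 plasma cell genes (left) and the CPM of Cxcl13 (right, both log axes), with 1 point per library, VUF11207 in red and DMSO in blue. VUF11207 replicate 2 is at 10.7 and 178 CPM for the B cell and plasma cell sums, and the other VUF11207 libraries lie with DMSO replicate 2 at the low end.

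Summed over the 5 B cell genes, the level was 1.18, 10.7 and 1.62 CPM in VUF11207 replicates 1, 2 and 3, and 4.29, 1.20 and 6.14 CPM in the unnumbered DMSO library and DMSO replicates 2 and 3. Summed over the 4 plasma cell genes it was 9.70, 178 and 5.85 CPM with VUF11207 and 21.9, 8.03 and 58.03 CPM with DMSO. VUF11207 replicate 2 and DMSO replicate 3 led in both sums.

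Markers of other cells moved with these genes in part. T cell markers, of which 13 of 15 were in the table, summed to between 6.35 and 26.9 CPM over the VUF11207 libraries and to between 6.27 and 23.6 CPM over the DMSO libraries. The 9 that passed the filter had 3 positive log2 fold changes, a median of -0.040 and 0 calls. Their level (log2 CPM centred on each gene's average over the 6 libraries, then averaged over the list) was -0.77, 1.19 and -0.65 in VUF11207 replicates 1, 2 and 3, and 1.19, -0.99 and 0.028 in the unnumbered DMSO library and DMSO replicates 2 and 3. T cell markers were therefore as high in the unnumbered DMSO library as in VUF11207 replicate 2, where the plasma cell genes were at 0.30 and 2.79 on the same scale. Cd3e, a chain of the T cell receptor complex, had 0.473, 1.41 and 0.372 CPM with VUF11207 and 1.59, 0.563 and 0.581 CPM with DMSO. Cd3g, Cd4 and Lck had log2 fold changes of -0.0098 ± 0.74, -0.040 ± 1.002 and 0.049 ± 0.88 (SE).

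Macrophage markers summed to between 136 and 288 CPM over the VUF11207 libraries and to between 159 and 419 CPM over the DMSO libraries, with 0 of 12 log2 fold changes positive, a median of -0.47 and 0 calls. For 9 of the 12 the same 3 libraries were highest. Lyz2, the lysozyme of myeloid cells, was at -0.78 ± 0.63, and the complement genes C1qa and C1qb at -0.47 ± 0.34 and -0.30 ± 0.44 (log2 fold change, SE). Red blood cell genes summed to between 81.0 and 501 CPM over the VUF11207 libraries and to between 187 and 1844 CPM over the DMSO libraries, and 6 of the 6 tested had the same 3 libraries highest. None of these 6 was positive, the median log2 fold change was -1.94, and 0 were called. Hba-a1, Hbb-bs and Hbb-bt were at -1.71 ± 0.88, -2.33 ± 1.16 and -2.16 ± 1.28 (log2 fold change, SE). Hbb-bs and Hbb-bt are close copies of each other, and Hba-a1 of Hba-a2, so shared reads make single values uncertain. The part of blood and of other leukocytes in the B cell values was not tested.

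Seminal vesicle genes ran against the B cell genes in some libraries, with 9 of 9 log2 fold changes negative, a median of -2.82 and 0 calls. Their levels were 2.86, -3.50 and -0.80 in VUF11207 replicates 1, 2 and 3, and -2.98, 5.59 and -1.17 in the unnumbered DMSO library and DMSO replicates 2 and 3. Svs2, Svs5 and Svs4, secreted proteins of that gland, were at -1.85 ± 1.97, -2.23 ± 2.03 and -2.85 ± 2.59 (log2 fold change, SE). VUF11207 replicate 3 was low both in seminal vesicle genes and in the B cell genes. Skeletal muscle genes had 7 of 10 positive, a median of 0.11 and 0 calls, with levels of 4.14 in VUF11207 replicate 1 and 3.97 in DMSO replicate 3 and below 0.41 in the other libraries. Acta1, Ckm and Tnnt3 of muscle were at 0.39 ± 0.69, -0.00054 ± 1.66 and -0.063 ± 2.52 (log2 fold change, SE). Prostate secretory genes had 6 of 9 positive, a median of 1.18 and 0 calls, with Sbp, Spink1 and Tgm4 at 1.18 ± 1.34, 1.59 ± 1.09 and -0.79 ± 1.46. Without VUF11207 replicate 1 and DMSO replicate 2, the libraries with most seminal vesicle counts, 0 of the 9 B cell and plasma cell genes were called.

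**Figure D4:**
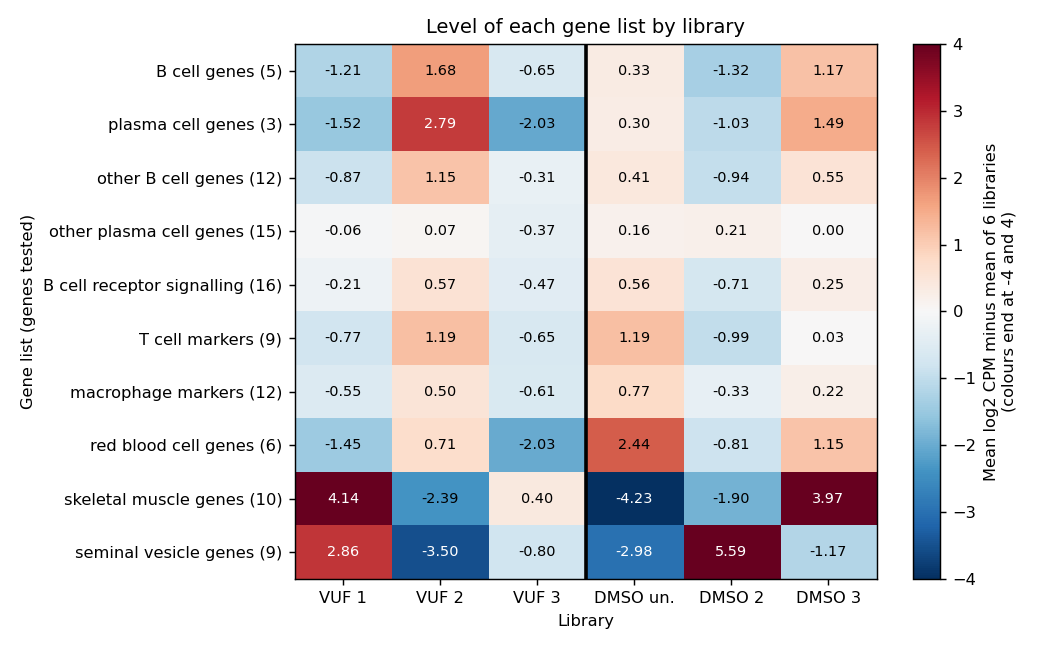
Level of each gene list in each library, as log2 CPM centred per gene on its 6-library average and averaged over the tested genes (number in brackets), with VUF11207 libraries left and DMSO libraries right (un. for the unnumbered library). B cell and plasma cell genes are high in VUF11207 replicate 2 and DMSO replicate 3, while the other plasma cell genes stay between -0.37 and 0.21.

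The 8 genes whose log2 CPM was most like the mean of the 8 tested members over the 6 libraries, of 12518 eligible genes, were Lrch3 (r 0.99), Ltb (0.98), Top1 (0.97), Vit (0.96), Adcy7 (0.96), Zfp942 (0.96), Zfp189 (0.95) and Rac2 (0.95). Ltb and Rac2, a small GTPase of blood cells, varied over several-fold. Rac2 had 2.70, 16.3 and 3.65 CPM in VUF11207 replicates 1, 2 and 3, and 12.2, 2.89 and 10.7 CPM in the unnumbered DMSO library and DMSO replicates 2 and 3. Top1, DNA topoisomerase I, had the same 3 libraries highest within a narrow range, at 58.0, 73.1 and 62.3 CPM with VUF11207 and 65.4, 58.5 and 68.3 CPM with DMSO. These r are the highest of many computed over 6 libraries, and they carry no test.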

How the data were processed

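6 RNA sequencing libraries of prostate from mice with experimental autoimmune prostatitis (3 VUF11207, 3 DMSO) were analysed, grouped by the sample labels. The authors deposited raw counts, whole numbers with a row for each gene symbol. Per the submitters' processing notes, fastp, HISAT2 and HTSeq were used with mm10, without versions. Annotation, strand setting and treatment of shared reads: not given in the sources used here. In GENCODE M21, Cd22 and Ms4a1 overlap antisense genes, Mzb1 overlaps a gene on its own strand and Pou2af1 holds an intronic transcript, so their values are uncertain. Of the columns, 5 matched their sample's own file exactly, and 1 DMSO column matched none, so its labelled replicate could be inferred only by elimination. Total counts of 20308018 to 33368058 leave genes near 1 CPM with few counts. A count of 0 was given an upper limit of 3 counts, and intervals cover counting error only.

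TMM scaling, filterByExpr (13753 genes kept) and the robust quasi-likelihood test of edgeR 4.0.16 in R 4.3.3 compared VUF11207 with DMSO, two-sided, with Benjamini-Hochberg adjustment over all genes tested and a threshold of 0.05. Each SE is the absolute log2 fold change over the square root of F. Log2 CPM used a prior count of 2. The test was tried on simulated data. An exact permutation test of 3 against 3 libraries cannot go below 0.1, so none is reported. Named genes were the members, the 3 most abundant genes of each list, a fixed set of B cell, plasma cell and CXCR7 genes (some items are not reported here), and the 8 genes most like the members with a mean log2 CPM of at least 0. Other genes named from a list by their library order were chosen after their values were seen, and so were the sequence motifs. The members and lists were chosen with earlier results of these data known.

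Alternatives were DESeq2 1.42.0, limma 3.58.1 voom, other scaling and filters, a replicate block, leaving out each library and, chosen after seeing the data, a block by the number in the column names and leaving out the 2 libraries with most seminal vesicle or most skeletal muscle counts.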

Additional observations from a re-analysis of the deposited data

How the results depend on the processing

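No member that an alternative tested was called, with adjusted p of 0.895 or more in edgeR, DESeq2 and limma voom. The filter of 10 counts left 3 of the 9 genes (median 1.06) and limma voom 8. Counts of all genes called were 3 with library totals and 4 with DESeq2, against 0 as reported and 0 with the other alternatives run on all genes. With 1 library left out, the median log2 fold change of the members ran from -1.95 (without VUF11207 replicate 2) to 1.26 (without DMSO replicate 3). The log2 ratio of group means of the summed levels ran from -1.47 to 0.71 for B cell genes (0.22 as reported) and from -1.92 to 2.105 for plasma cell genes (1.14 as reported), with the same libraries at the ends. Single genes ran from -2.59 to 0.84 for Cd22, -2.08 to 0.96 for Cd79a, -0.69 to 2.18 for Ms4a1, -0.39 to 2.10 for Cr2, -1.87 to 2.20 for Jchain, -2.03 to 1.905 for Mzb1, -3.555 to 0.62 for Pou2af1 and -1.46 to 0.62 for Tnfrsf17. Cd79b stayed negative, from -1.59 to -0.19.

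With limma voom the median of the members was -0.66 and Pou2af1 was at -2.36, and signs turned for Cd22 (-0.85), Cd79a (-1.045), Ms4a1 (-0.12), Jchain (-0.14) and Mzb1 (-0.47). With library totals Pou2af1 was at 0.036, and with totals that leave out seminal vesicle genes Cr2 was at -0.011. Without the 2 libraries with most seminal vesicle counts Cr2 was at -0.69 and Pou2af1 at 0.055, and without the 2 with most skeletal muscle counts Cd79b was at 0.13, Pou2af1 at 1.16, Jchain at 2.75, Mzb1 at 2.497, Ms4a1 at 2.81, Cr2 at 1.78 and the median at 1.22. The cause was not tested. The replicate block by labelled number used the 4 libraries labelled 2 and 3, and it turned Cr2 to -0.35 and Tnfrsf17 to 0.86 with 0 members called. A replicate block by the number in the column names, added after seeing the data, used all 6 libraries. It gave -1.36 for Cd22, -1.13 for Cd79a, -0.18 for Ms4a1, -0.49 for Jchain, -0.90 for Mzb1, -2.07 for Pou2af1 and -0.89 for the median, with 0 members called. Deviations of the 3 pairs with the same column number correlated at -0.59, -0.33 and 0.053, none above 0.1. The libraries were few and differed in counts of neighbouring tissue genes, so these values cannot tell whether equal numbers mark a pairing or a batch. Of the 8 genes most like the members, 6 were shared with a prior count of 0.5, 4 with the B cell genes alone and 5 with the plasma cell genes alone. Over all genes tested, the median log2 value was 0.14 with library totals, against -0.041 with TMM.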

Other observations

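Genes of organised lymphoid tissue had 0 calls in the lists below. Of 8 germinal centre genes 6 passed the low count filter, 4 with a positive log2 fold change, with a median of 0.36 and 0 called by edgeR. Bcl6, a repressor of the germinal centre program that other cells also express, was at 0.52 ± 0.32, Fas, a death receptor, at -0.62 ± 0.30 and S1pr2, a receptor that confines germinal centre B cells, at 0.96 ± 0.46 (log2 fold change, SE).

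Of 7 follicular dendritic cell genes 5 passed the filter, 2 of them positive, with a median log2 fold change of -0.26 and 0 called. Clu, clusterin, was at -0.92 ± 1.33 and Mfge8, a glycoprotein that tags dying cells, at 0.23 ± 0.23 (log2 fold change, SE), and both are expressed by other cells of the gland too. Of 6 high endothelial venule genes 2 passed, Enpp2 at 0.54 ± 0.65 and Ccl21a at 0.38 ± 0.88, with a median of 0.46 and 0 called, while Glycam1, a mucin of these venules, averaged 0.150 CPM over the 6 libraries. Plasmacytoid dendritic cell markers, listed because these cells can also carry Jchain and Mzb1 transcripts, had 2 of 7 positive, a median of -0.095 and 0 called. Their defining marker Siglech was highest in the unnumbered DMSO library, at 1.52 CPM, and was at most 0.549 CPM in the other 5 libraries, an order unlike that of Jchain. Other genes of the list were closer to it. Irf8 had the same 3 libraries highest as Jchain, and Pacsin1 was highest in VUF11207 replicate 2, at 1.31 CPM. The part of these cells in the Jchain and Mzb1 values was not tested. Tcf4, Bst2 and Cox6a2 of this list were at -0.095 ± 0.35, 0.53 ± 0.25 and 0.075 ± 2.31 (log2 fold change, SE).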
